A study of Homo sapiens with 192 samples.

Results

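HCT116 and LS174T are established human colorectal carcinoma lines that are both microsatellite instable, which means that their mismatch repair is defective. The comparison described here asks whether the same change of culture, from a flat layer (2D) to 3D growth, moved the same genes in both. It sets side by side 12 of the 24 libraries of the study, taken by line: 3 HCT116 2D, 3 HCT116 3D, 3 LS174T 2D and 3 LS174T 3D libraries. The spread behind each error and p was estimated from all 24, so the libraries of the other lines, HT29 and LS513, enter it too. For each gene, the response to 3D is the log2 fold change of 3D over 2D within a line, and the difference of responses is that value in HCT116 minus that value in LS174T. No drug or genetic change separated the groups. HCT116 cells were kept in McCoy medium and LS174T cells in DMEM, so line and medium cannot be told apart, and each line is 1 established culture with its own history.

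Cells in a spheroid touch neighbours on all sides, and those inside receive less oxygen and nutrients than those at the rim. Induction of hypoxia genes and slower division are well known in such cultures. HCT116 is a poorly differentiated line, whereas LS174T secretes mucus and keeps part of the goblet cell program of the colon. Interferon-stimulated genes, which form the largest group in what follows, encode antiviral proteins. They are switched on when a complex that contains IRF9 binds a short GAAA repeat in their promoters.

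The 12 libraries held between 29400099 and 31925024 counts, with a median of 30637122, so that 3 counts, used as the floor of detection, corresponded to 0.0940 to 0.102 CPM (counts scaled to library size). All 6 epithelial markers passed 3 counts in LS174T and 5 of 6 did in HCT116, where the cadherin CDH17 stayed at or below 3 counts. Summed goblet markers (MUC2, TFF3, SPDEF, ATOH1) lay between 0.231 and 0.471 CPM in HCT116, against 109 to 134 CPM in LS174T 2D and 316 to 564 CPM in LS174T 3D. HCT116 3D library 1 stood apart by its mitochondrial share, which was 6.40% of its counts against 1.14% to 2.45% in the other 11 libraries. HCT116 3D library 3 was the lowest of its group for 145 of the 176 genes that rose in HCT116 alone, as defined next. The labels do not say whether libraries came from separate cultures, so p-values measure the spread between libraries only.

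Of 19387 tested genes, 921 (4.75%) had a different response in the lines at an adjusted p under 0.05 by edgeR's quasi-likelihood test with Benjamini-Hochberg adjustment, which is the test behind every adjusted p given here. The response was higher in HCT116 for 629 genes (3.24%) and lower for 292 (1.51%), and 3202 genes (16.5%) passed at an unadjusted p under 0.05. Fitted on the 12 libraries alone, 510 genes differed, 360 higher and 150 lower in HCT116, and by DESeq2 the lower ones were 534. With same-numbered 2D and 3D libraries of a line treated as pairs (a replicate block), 535 differed, 414 higher and 121 lower. Within HCT116, 5637 genes (29.1%) differed between 3D and 2D, and within LS174T 4305 (22.2%) did, or 2816 with the 12 libraries alone. A gene called in 1 line and missed in the other is not by itself a different response: of 3513 genes called in HCT116 and not in LS174T, 532 also passed the test of the difference, and of 2181 called in LS174T and not in HCT116, 206 did. The median difference over all tested genes was -0.01 on the log2 scale.

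A gene was placed in the HCT116-only class when the difference passed, its log2 fold change in HCT116 was at least 1 in size with an adjusted p under 0.05, and the 95% interval of its LS174T change lay inside -1 to 1 with an adjusted p of at least 0.05. The LS174T-only class is the mirror image. HCT116 alone raised 176 genes (0.908% of tested genes) in 3D and lowered 6 (0.0309%). LS174T alone raised 52 (0.268%) and lowered 11 (0.0567%). These counts hinge on the interval asked of the other line: inside -0.58 to 0.58, HCT116 alone raised 74 genes, and LS174T alone raised 28 and lowered 5. A further 88 genes were called in both lines with opposite signs, of which 70 (0.361%) rose in HCT116 and fell in LS174T and 18 (0.0928%) did the reverse; the 88 became 52 with the 12 libraries alone. Another 82 moved the same way to a different extent, 4 were at or below 3 counts in 1 of the lines, and 502 met no class, mostly because their change was under 1 or their interval was wide.

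**Figure D1:**
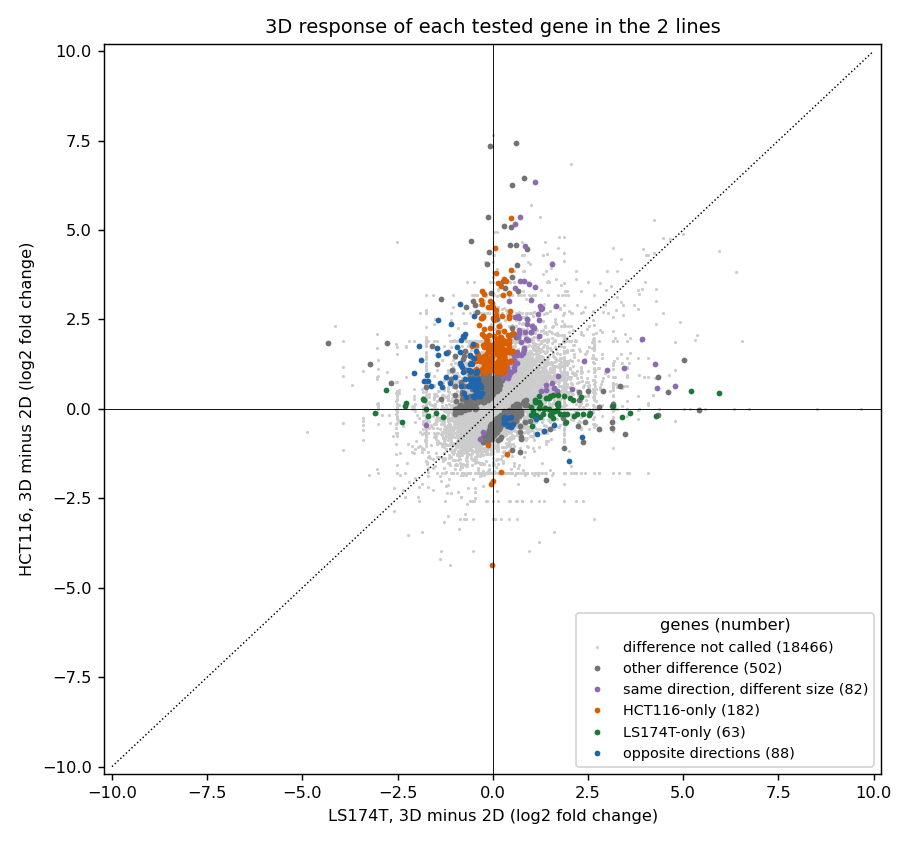
Each point is 1 of the 19387 tested genes, with its log2 fold change of 3D over 2D in LS174T on the horizontal axis and in HCT116 on the vertical axis; the dotted line marks equal responses and colours mark the classes, by the tests given in the text. The 176 HCT116-only genes that rose form a column above 0 on the LS174T axis, and the 52 LS174T-only genes that rose form a thinner band to the right.

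Many of the one-line genes had few counts in the line that responded. Of the 176 genes raised in HCT116 alone, 158 reached 1 CPM on average in HCT116, while of the 6 lowered genes 1 did, and 13 of the 176 had a mean in LS174T over 10 times the higher HCT116 mean. Of the 52 raised in LS174T alone, 36 reached 1 CPM in LS174T, and 18 had a mean in HCT116 over 10 times the higher LS174T mean. SEPTIN3 and TCEA2 are among these 18. TCEA2, an elongation factor, measured 7.16, 8.51 and 10.8 CPM in HCT116 2D and 13.03, 12.6 and 11.6 CPM in HCT116 3D, against 0, 0.0284 and 0 CPM in LS174T 2D and 0.429, 0.620 and 0.491 CPM in LS174T 3D. For TCEA2 the LS174T response is a move from below the floor to a trace. Over 82 genes that only HCT116 used, the summed level in LS174T libraries was 0.0433% to 0.0794% of that in HCT116, with overlapping ranges in 2D and 3D. Over 65 genes that only LS174T used, the level in HCT116 3D library 1 was 0.0514% of that in LS174T. The other HCT116 libraries had 0.00658% to 0.0269%. Both sets were picked from these data as unused in the other line, so low levels there follow from the choice.

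Counts in these classes moved with single libraries. The 921 differences became 565 without HCT116 3D library 2, and the 629 higher ones became 411 without HCT116 3D library 1 and 381 without library 2, while the 292 lower ones ranged from 175 without LS174T 2D library 3 to 490 without HCT116 3D library 3. The 176 genes raised in HCT116 alone stayed within 1.5 times of that number whichever library was left out, whereas the 52 raised in LS174T alone became 31 without LS174T 2D library 3. The 11 lowered in LS174T alone became 7 without HCT116 2D library 3 and 29 without LS174T 3D library 3. The 88 opposite genes became 55 without LS174T 2D library 1 and 51 without LS174T 2D library 3.

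Interferon effectors had the largest share of differing members among the 45 gene lists examined. Of 54 interferon effector genes tested, 42 had a higher response in HCT116 and 0 a lower one (backgrounds 3.24% and 1.51%). The median difference was 2.06 against -0.01 over all genes. In HCT116, 53 of the 54 rose (background 16.8%), with a median log2 fold change of 1.91. In LS174T, 4 rose and 8 fell (backgrounds 13.1% and 9.15%), with a median of 0.03. The 42 became 40 to 43 when any 1 library was left out. HCT116 3D library 1, whose mitochondrial share was raised, was the highest 3D library for 42 of the 54 and library 3 the lowest for all 54, and the part of RNA quality in this was not tested.

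**Figure D2:**
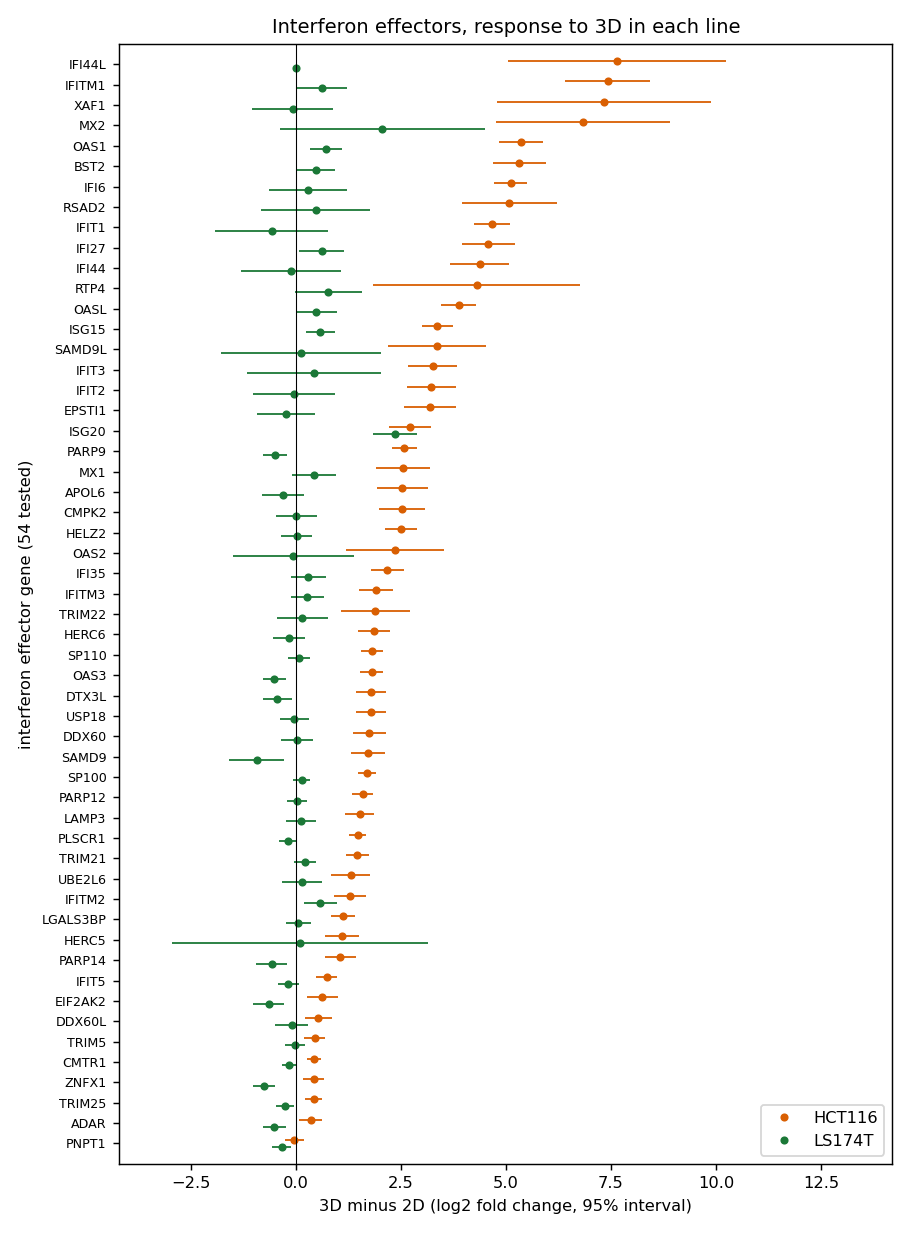
Log2 fold change of 3D over 2D with its 95% interval for the 54 tested interferon effectors, in HCT116 (orange) and LS174T (green), ordered by the HCT116 value. All HCT116 points but that of PNPT1 lie above 0, while LS174T points lie near 0 on either side, with ISG20 an exception at 2.37 and a wide interval for MX2.

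The promoters of 4 effectors are printed because they hold the repeat that the IRF9 complex reads. They are the 4 with the smallest p of the difference among those with an entry in the RefSeq promoter table and a match of GAAA, any 2 bases and GAAA again on either strand. To be printed, the match had to lie wholly before the start. Promoters on a chromosome not reported here were passed over. Each is written 5′ to 3′ in the direction of its gene, on GRCh38.p14, with the matched bases in capitals; overlapping matches are merged.
PARP9 (chr3:122564301-122564381, minus strand): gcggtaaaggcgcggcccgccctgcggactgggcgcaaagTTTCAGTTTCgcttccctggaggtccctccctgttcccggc
BST2 (chr19:17405705-17405800, minus strand): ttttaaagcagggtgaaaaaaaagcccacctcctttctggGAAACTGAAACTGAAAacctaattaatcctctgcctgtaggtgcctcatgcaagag
OAS3 (chr12:112938291-112938473, plus strand): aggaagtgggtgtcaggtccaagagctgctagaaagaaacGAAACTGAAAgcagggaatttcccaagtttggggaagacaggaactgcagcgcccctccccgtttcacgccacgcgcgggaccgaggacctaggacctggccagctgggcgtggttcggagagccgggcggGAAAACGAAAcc
PLSCR1 (chr3:146544637-146544726, minus strand): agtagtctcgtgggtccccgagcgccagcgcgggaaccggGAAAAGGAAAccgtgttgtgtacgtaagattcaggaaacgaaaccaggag
The match began 41 bases before the start of PARP9, 130 and 124 bases before that of BST2, 143 and 12 bases before that of OAS3 and 91 bases before that of PLSCR1, a scramblase of membrane lipids that rose in HCT116 by 1.47 ± 0.10 and changed by -0.19 ± 0.10 in LS174T.

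In the window of 250 bases before to 50 after the start, the repeat was present in 3.65% of 27305 promoters and in 2.73% of the 12628 tested genes that had an entry. It was present in 29 of 44 interferon effectors (65.9%). Among genes raised in HCT116 alone it was present in 17 of 124 (13.7%), and in 7 of 107 (6.54%) once the interferon effectors were set aside. Among genes raised in LS174T alone it was present in 0 of 42. A match is a description of letters and not of binding.

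Of the 23 tested ligands, receptors and signalling genes of the interferon pathway, HCT116 raised 14 and lowered 2 (backgrounds 16.8% and 12.3%). LS174T raised 4 and lowered 2 (backgrounds 13.1% and 9.15%), and 6 differed, all higher in HCT116 (background 3.24%). IRF9, a DNA-binding subunit of the interferon response complex, measured 5.32, 5.44 and 5.61 CPM in HCT116 2D and 62.4, 56.3 and 40.5 CPM in HCT116 3D. The same gene measured 5.71, 5.86 and 4.44 CPM in LS174T 2D and 4.29, 4.96 and 4.05 CPM in LS174T 3D. The lines overlapped in 2D, and only the HCT116 3D libraries stood above, with no overlap. The difference of responses was 3.55 ± 0.24 (log2, SE, adjusted p = 1.8e-09). Part of its exonic sequence, 48.4%, is shared with another annotated gene on the same strand. IRF7, which amplifies interferon production, measured 4.05, 3.71 and 4.68 CPM in HCT116 2D and 52.9, 51.4 and 29.95 CPM in HCT116 3D, against 7.52 to 11.3 CPM in LS174T 2D and 8.08 to 13.8 CPM in LS174T 3D. IRF7 was lower in HCT116 2D than in any LS174T library and higher in HCT116 3D, with no overlap. Its responses differed by 3.22 ± 0.30 (adjusted p = 2.1e-07), with a rise of 3.43 ± 0.22 in HCT116 and a change of 0.21 ± 0.21 in LS174T.

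The 6 included STAT2, IRF7 and IRF9, and no receptor subunit was among them. The ligands were scarcely read: IFNB1, IFNL1, IFNL2, IFNL3 and IFNK reached at most 8 counts in any HCT116 library and 0 in LS174T. Of 12 sensors of foreign nucleic acid, 3 differed, all higher in HCT116 (background 3.24%). RIGI, which detects uncapped RNA, measured 8.28, 8.94 and 8.12 CPM in HCT116 2D and 57.2, 59.0 and 37.9 CPM in HCT116 3D, against 7.44 to 10.1 CPM in all LS174T libraries (difference 2.87 ± 0.21, adjusted p = 5.59e-09). The related helicase IFIH1 differed by 1.97 ± 0.26 and the adaptor MYD88 by 1.04 ± 0.14, both with a rise in HCT116.

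Among effectors, the level in LS174T followed no single pattern. In 2D, 23 of the 54 effectors were higher in all LS174T libraries than in any HCT116 library and 19 were lower. BST2, which tethers budding virus particles to the membrane, measured 0.544, 0.201 and 0.449 CPM in HCT116 2D and 22.9, 15.3 and 9.69 CPM in HCT116 3D. LS174T already had 7.30, 6.80 and 7.52 CPM in 2D and 9.69, 12.5 and 8.26 CPM in 3D, so that the HCT116 3D range overlapped that of LS174T 3D. The responses differed by 4.83 ± 0.39 (adjusted p = 2.45e-08). OAS1, which makes the oligoadenylate that activates RNase L, went in HCT116 from 1.03, 0.949 and 1.25 CPM to 53.7, 48.9 and 29.95 CPM, while LS174T started at 25.9, 22.8 and 25.6 CPM and ended at 36.4, 54.4 and 32.4 CPM. Both lines raised it, HCT116 by 5.36 ± 0.25 and LS174T by 0.73 ± 0.19, to ranges that overlapped in 3D (difference 4.63 ± 0.31, adjusted p = 1.8e-09). IFITM1, a membrane protein that blocks viral entry, was near the floor in HCT116 2D at 0.121, 0.259 and 0.225 CPM, reached 54.7, 37.1 and 14.17 CPM in HCT116 3D, and was at 26.7 to 30.8 CPM in LS174T 2D and 36.4 to 57.5 CPM in LS174T 3D; it shares 32.5% of its exonic bases with IFITM2.

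A second set was nearly silent in LS174T whatever the culture. IFI6, an antiviral protein of the endoplasmic reticulum, measured 8.31, 7.42 and 9.75 CPM in HCT116 2D and 371, 303 and 208 CPM in HCT116 3D, while in LS174T it stayed between 0.178 and 0.401 CPM in all 6 libraries. IFIT1, which binds RNA lacking host cap methylation, rose to 149, 144 and 102 CPM in HCT116 3D from 3.62, 5.32 and 6.48 CPM and stayed between 0.0614 and 0.237 CPM in LS174T. Of the 54 effectors, 13 were under 1 CPM on average in both LS174T conditions. OASL and EPSTI1 also rose in HCT116 alone, with differences of 3.39 ± 0.30 and 3.43 ± 0.45 and LS174T changes of 0.49 ± 0.23 and -0.22 ± 0.34.

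Other effectors fell in LS174T while they rose in HCT116. PARP9, which works with DTX3L in interferon signalling, measured 21.4, 22.3 and 18.96 CPM in HCT116 2D and 146, 138 and 92.5 CPM in HCT116 3D, against 35.3, 36.0 and 35.3 CPM in LS174T 2D and 27.1, 22.3 and 26.3 CPM in LS174T 3D. The groups of each line did not overlap, and the changes were 2.59 ± 0.15 in HCT116 and -0.49 ± 0.14 in LS174T (difference 3.08 ± 0.20, adjusted p = 1.8e-09). OAS3, PARP14, EIF2AK2 (the kinase PKR) and ADAR, which edits double-stranded RNA, followed with LS174T changes of -0.51 ± 0.13, -0.57 ± 0.18, -0.64 ± 0.18 and -0.51 ± 0.13. The ADAR rise in HCT116 was small, 0.36 ± 0.13, with an adjusted p of 0.0486. ISG20, an exonuclease, was an exception that rose in both lines, by 2.72 ± 0.24 in HCT116 and 2.37 ± 0.25 in LS174T (difference 0.36 ± 0.35, adjusted p = 0.686).

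Antigen presentation by class I molecules, which interferon also drives, differed in part. Of 20 genes tested, 7 had a higher response in HCT116 and 0 a lower one (backgrounds 3.24% and 1.51%). HCT116 raised 17 of the 20 and LS174T 5 (backgrounds 16.8% and 13.1%). TAP1, which pumps peptides into the endoplasmic reticulum, measured 52.7, 49.4 and 54.8 CPM in HCT116 2D and 137, 127 and 118 CPM in HCT116 3D, against 80.7 to 85.2 CPM in LS174T 2D and 86.4 to 128 CPM in LS174T 3D. HLA-F, a nonclassical class I chain, rose by 2.12 ± 0.20 in HCT116 and had a change of 0.52 ± 0.20 in LS174T that did not pass (adjusted p = 0.0688). NLRC5, the transactivator of class I genes, rose in HCT116 by 0.72 ± 0.14 and fell in LS174T by 0.46 ± 0.14. B2M, the light chain, rose in both lines, by 1.22 ± 0.12 and 0.83 ± 0.12, and the difference of 0.40 ± 0.16 did not pass (adjusted p = 0.203). The 7 became 14 in the largest leave-one-out count, without LS174T 3D library 2, and were 12 without HCT116 3D library 3.

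The second large block in HCT116 was adhesion to the basement membrane and its remodelling. Of 22 laminins and collagens tested, 6 had a higher response in HCT116 and 0 a lower one (backgrounds 3.24% and 1.51%). Among 11 integrins the counts were 4 and 0. Laminins anchor epithelia to the basement membrane. The laminin chain LAMB3 measured 40.2, 35.5 and 57.7 CPM in HCT116 2D and 176, 153 and 109 CPM in HCT116 3D, against 31.8 to 46.0 CPM in LS174T 2D and 46.4 to 61.7 CPM in LS174T 3D. LAMB3 rose in HCT116 by 1.72 ± 0.19 and changed by 0.42 ± 0.19 in LS174T, and LAMA3 rose in HCT116 by 0.83 ± 0.16 and fell in LS174T by 0.74 ± 0.16. The laminin receptor chain ITGB4 measured 136, 119 and 129 CPM in HCT116 2D and 446, 458 and 259 CPM in HCT116 3D, and stayed between 117 and 159 CPM in all LS174T libraries. The lines overlapped in 2D and separated by a difference of 1.64 ± 0.22 (adjusted p = 3.87e-05). ITGA3 and ITGB5, integrin chains for laminin and vitronectin, rose in HCT116 by 0.68 ± 0.10 and 0.34 ± 0.09 and fell in LS174T by 0.33 ± 0.10 and 0.49 ± 0.09.

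Of 17 matrix proteases and inhibitors, 7 had a higher response in HCT116 (background 3.24%). PLAUR, the urokinase receptor, measured 17.6, 16.1 and 22.0 CPM in HCT116 2D and 91.7, 73.4 and 62.7 CPM in HCT116 3D, against 9.64 to 15.1 CPM in LS174T 2D and 8.91 to 10.6 CPM in LS174T 3D. HCT116 2D already lay above all LS174T libraries, and HCT116 3D lay higher still, with no overlap (difference 2.26 ± 0.26, adjusted p = 6.04e-06). The inhibitor TIMP1 rose by 0.76 ± 0.15 in HCT116 and changed by -0.34 ± 0.15 in LS174T. SERPINB5 (maspin) fell in LS174T by 0.61 ± 0.09, while the HCT116 change of 0.20 ± 0.09 did not pass.

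Of 10 mesenchymal markers, 3 had a higher response in HCT116 (background 3.24%): LOXL2, S100A4 and SPARC. LOXL2, which crosslinks collagen, measured 19.6, 18.1 and 17.8 CPM in HCT116 2D and 156, 156 and 86.2 CPM in HCT116 3D, against 0.399 to 0.614 CPM in all LS174T libraries. SPARC, a matrix glycoprotein, reached only 1.16, 1.70 and 0.535 CPM in HCT116 3D. Its counts there were 35, 52 and 16, up from 5, 6 and 6 in HCT116 2D. LS174T had 40, 73 and 52 counts in 2D and 49, 23 and 40 in 3D, so that HCT116 3D overlapped LS174T. The epithelial cadherin CDH1 rose as well in HCT116, by 0.64 ± 0.13, with an LS174T change of 0.02 ± 0.13. Its difference of 0.63 ± 0.18 did not pass (adjusted p = 0.05 after rounding). The tight junction genes CLDN3 and CLDN4 rose in both lines and more in HCT116, by differences of 1.29 ± 0.27 and 0.83 ± 0.19. Fibroblast markers summed to 10.1 to 21.8 CPM in HCT116 and to under 1 CPM in LS174T, mostly from COL1A1, whose difference did not pass (adjusted p = 0.67).

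Among 13 S100 proteins, small calcium binders, 6 had a higher response in HCT116 and 0 a lower one (backgrounds 3.24% and 1.51%). S100A6 measured 375, 369 and 524 CPM in HCT116 2D and 1147, 1096 and 1186 CPM in HCT116 3D, against 577 to 856 CPM in LS174T 2D and 540 to 845 CPM in LS174T 3D. It started lower in HCT116 and ended higher, with no overlap in 3D, by 1.43 ± 0.17 in HCT116 and -0.07 ± 0.17 in LS174T (adjusted p of the difference 0.000372). S100A4 and S100A11 followed with differences of 2.48 ± 0.30 and 1.15 ± 0.21. Among other genes raised in HCT116 alone, GRHL3, a transcription factor of surface epithelia, was at 0.513, 0.546 and 0.545 CPM in HCT116 2D and 5.62, 6.99 and 5.95 CPM in HCT116 3D, while LS174T had 8.04 to 9.57 CPM in 2D and 8.57 to 10.6 CPM in 3D. HCT116 3D thereby came near the LS174T level without reaching it. ID2, an inhibitor of differentiation factors, likewise rose in HCT116 alone, from 24.5, 25.9 and 45.8 CPM to 109, 122 and 120 CPM, into the range of LS174T 2D at 103 to 123 CPM.

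**Figure D3:**
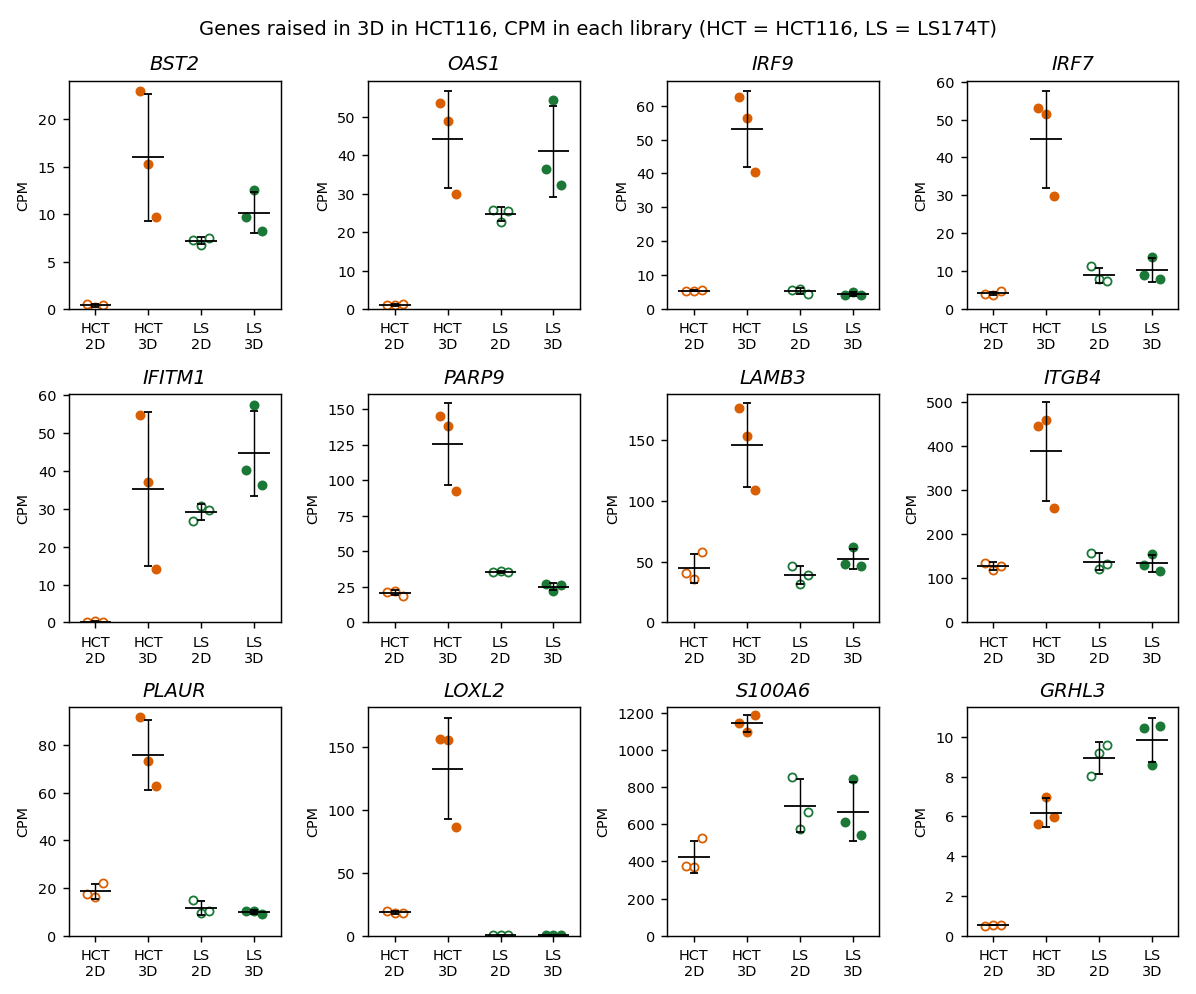
CPM in each of the 12 libraries for 12 genes that rose in HCT116 3D; open circles are 2D and filled circles 3D libraries, horizontal lines are means and bars are SD (n = 3). For IRF9, IRF7, ITGB4 and S100A6 the 3 HCT116 3D libraries lie above all 9 others, while BST2, OAS1, IFITM1 and GRHL3 in HCT116 3D meet or approach a level that LS174T had in 2D.

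Few inflammatory genes differed. Of 32 tested in the NF-kB list, 2 had a higher response in HCT116 and 2 a lower one (backgrounds 3.24% and 1.51%). HCT116 raised 11 of the 32 and LS174T 9 (backgrounds 16.8% and 13.1%). IL18, a cytokine that epithelia store as a precursor, measured 21.6, 22.3 and 21.1 CPM in HCT116 2D and 64.8, 59.5 and 54.1 CPM in HCT116 3D, against 12.995 to 15.997 CPM in LS174T 2D and 9.38 to 14.04 CPM in LS174T 3D. BIRC3, an inhibitor of cell death, differed by 1.27 ± 0.30. IL1A rose in LS174T to 0.582, 0.875 and 0.860 CPM from at most 0.0598 CPM, a low level. Without HCT116 3D library 1 the 2 higher genes became 1, and the 2 lower ones became 0 without HCT116 2D library 3, LS174T 2D library 2 or LS174T 2D library 3. Of 16 Notch pathway genes, NOTCH3 rose in HCT116 alone by 1.34 ± 0.13, NOTCH1 fell in LS174T by 0.52 ± 0.11 with an HCT116 change of 0.17 ± 0.11, and the feedback gene NRARP fell in HCT116 by 0.45 ± 0.13 and rose in LS174T by 0.43 ± 0.11. Lysosomal genes differed in 4 of 27, all higher in HCT116 (background 3.24%), with NEU1 raised in both lines and CTSL raised in HCT116. The macrophage and lysosome marker CD68 made up most of the summed immune markers, which were 10.8 to 14.4 CPM in HCT116 2D, 36.0 to 47.5 CPM in HCT116 3D, 4.32 to 6.63 CPM in LS174T 2D and 9.29 to 10.2 CPM in LS174T 3D, while the leukocyte markers PTPRC and CD3E were at or near 0 in all libraries.

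What HCT116 lowered alone was slight. SMIM13, a small membrane protein, was the 1 gene of 6 above 1 CPM, at 34.7, 33.1 and 32.6 CPM in 2D and 17.2, 14.4 and 18.6 CPM in 3D, with 14.3 to 23.7 CPM in LS174T.

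The genes named here among those raised in LS174T alone have mixed functions. NXPH4, a secreted neurexin ligand, measured 9.72, 5.60 and 6.10 CPM in LS174T 2D and 47.4, 41.9 and 37.2 CPM in LS174T 3D, against 10.96 to 17.2 CPM in HCT116 2D and 11.7 to 12.5 CPM in HCT116 3D. The LS174T groups did not overlap, and the HCT116 groups did (difference -2.69 ± 0.36, adjusted p = 4.23e-05). SLC6A8, the creatine transporter, rose from 59.8, 56.3 and 61.6 CPM to 177, 155 and 194 CPM in LS174T and stayed between 116 and 148 CPM in HCT116. TDP2, a DNA end repair enzyme, rose from 50.1, 57.0 and 50.8 CPM to 147, 137 and 168 CPM, while HCT116 stayed between 35.9 and 44.5 CPM. The HCT116 changes had 95% intervals of -0.32 to 0.14 for SLC6A8 and -0.37 to 0.04 for TDP2.

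Of 22 genes of the ATF4 and amino acid stress list, 2 had a lower response in HCT116 (background 1.51%). SHMT2, the mitochondrial enzyme that makes glycine from serine, measured 325, 307 and 300 CPM in LS174T 2D and 632, 762 and 637 CPM in LS174T 3D, against 342, 305 and 339 CPM and then 274, 291 and 313 CPM in HCT116. The pseudokinase TRIB3 rose in LS174T by 1.41 ± 0.15 and changed by 0.30 ± 0.14 in HCT116. DHRS3, which reduces retinal, rose in LS174T by 1.55 ± 0.15 from 11.3 to 11.8 CPM, and CYP26B1, which degrades retinoic acid, rose there by 2.34 ± 0.29 from 0.359 to 0.455 CPM and fell in HCT116 by 0.80 ± 0.20. WNK4, a kinase that controls ion transport, and IGFBP2, which binds insulin-like growth factors, rose in LS174T by 1.72 ± 0.23 and 1.70 ± 0.24. IGFBP2 stayed at most at 6.23 CPM in LS174T against 105 to 191 CPM in HCT116.

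The genes that LS174T lowered alone included CD109 and CALB2. CD109, a surface protein that dampens TGF-beta signals, fell from 23.7, 19.96 and 22.2 CPM to 4.41, 3.28 and 5.71 CPM, whereas HCT116 held 51.4 to 90.3 CPM in 2D and 76.8 to 90.6 CPM in 3D. CALB2 (calretinin), a calcium buffer, fell from 63.0, 52.6 and 58.9 CPM to 17.3, 17.9 and 16.6 CPM, which is the range of HCT116 in either culture (13.7 to 18.99 CPM). The HCT116 change of CALB2 had a 95% interval of -0.28 to 0.27. SKIL, a repressor of TGF-beta signalling, and the kinesin KIFC3 fell by 1.70 ± 0.20 and 1.82 ± 0.16, and ZNF532, a zinc finger protein, fell by 1.30 ± 0.21.

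Of 26 mucin and goblet genes tested, LS174T raised 16 and HCT116 5 (backgrounds 13.1% and 16.8%), so that the HCT116 count was near its background. The test of the difference passed for 3 (all genes 4.75%). Of these, 2 were lower in HCT116 (FCGBP and SPDEF) and 1 was higher (MUC20, with 42.8% of its exonic bases shared with MUC20-OT1). FCGBP, a component of mucus, measured 25.8, 40.2 and 37.1 CPM in LS174T 2D and 158, 292 and 136 CPM in LS174T 3D, and stayed between 4.41 and 10.2 CPM in HCT116, a rise of 2.50 ± 0.27 in LS174T (adjusted p of the difference 0.00296). SPDEF, the goblet cell transcription factor, rose from 1.41, 3.27 and 2.67 CPM to 14.99, 21.7 and 14.1 CPM in LS174T and stayed at or below 0.266 CPM in HCT116. The mucin MUC2 rose in LS174T from 60.9, 40.7 and 51.1 CPM to 140, 213 and 89.1 CPM, while HCT116 had at most 3 counts, so that its difference could not be judged (-1.42 ± 2.98). In bulk libraries, more cells of a type and more RNA per cell cannot be told apart.

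Of 20 absorptive colonocyte genes tested, LS174T raised 10 and HCT116 3 (backgrounds 13.1% and 16.8%), so that the HCT116 count was near its background. A lower response in HCT116 was found for 3 (background 1.51%). KRT20, a keratin of mature colonocytes, rose in both lines, from 0.658, 1.05 and 0.741 CPM to 12.8, 15.2 and 9.64 CPM in LS174T, and HCT116 went from 0.604, 0.661 and 0.674 CPM to 2.89, 2.55 and 2.07 CPM. From 2D levels that overlapped, the rise was 3.93 ± 0.21 in LS174T and 1.95 ± 0.26 in HCT116 (difference -1.98 ± 0.37, adjusted p = 0.00152). ANPEP, a brush border peptidase, rose in LS174T by 3.16 ± 0.28 and stayed at or below 0.199 CPM in HCT116. The intestinal transcription factor CDX2 rose in LS174T by 0.79 ± 0.12 and changed by 0.17 ± 0.12 in HCT116. Against this direction, the sodium-proton exchanger SLC9A3 fell in LS174T by 1.11 ± 0.24, from 7.98, 9.98 and 11.6 CPM to 4.51, 3.46 and 5.74 CPM; in HCT116 it had at most 6 counts in any library.

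Metallothioneins, which bind zinc and copper, rose in LS174T in 7 of 8 cases and in HCT116 in 1 (backgrounds 13.1% and 16.8%). Only MT1X passed the test of the difference (-1.03 ± 0.25, adjusted p = 0.0172). Growth factor signalling differed in 7 of 29 genes, 2 higher and 5 lower in HCT116 (backgrounds 3.24% and 1.51%). The 5 became 2 without HCT116 2D library 2 and 8 without LS174T 3D library 3, and the 2 became 0 when each of 8 libraries was left out in turn. ETV4, a transcription factor downstream of ERK, measured 111, 118 and 107 CPM in LS174T 2D and 259, 248 and 231 CPM in LS174T 3D, against 58.7, 58.3 and 68.0 CPM in HCT116 2D and 49.1, 51.9 and 51.6 CPM in HCT116 3D. It rose in LS174T by 1.13 ± 0.08 and fell in HCT116 by 0.28 ± 0.08 (difference -1.41 ± 0.12, adjusted p = 3.87e-08). The ERK phosphatase DUSP6 rose in LS174T by 0.51 ± 0.15 and fell in HCT116 by 0.46 ± 0.15. The immediate early gene FOS reached 242, 242 and 36.2 CPM in LS174T 3D from 7.14 to 9.87 CPM, so that 1 of the 3 libraries was far below the other two, while HCT116 3D had 6.65 to 12.6 CPM. BMP2, a growth factor that limits crypt growth, rose in LS174T by 1.85 ± 0.26 and stayed under 1 CPM in HCT116.

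The 70 genes that rose in HCT116 and fell in LS174T also included genes outside the interferon lists. GALNT5 (GRCh38, chromosome 2, 157257598 to 157314211, plus strand), a glycosyltransferase that starts O-glycans, measured 6.16, 4.37 and 3.56 CPM in HCT116 2D and 31.8, 32.9 and 42.3 CPM in HCT116 3D, against 98.3, 90.1 and 95.1 CPM in LS174T 2D and 53.3, 40.6 and 61.2 CPM in LS174T 3D. The lines thus moved toward each other, by 2.92 ± 0.23 and -0.87 ± 0.20 (difference 3.79 ± 0.30, adjusted p = 2.45e-08). The glucose transporter SLC5A1 did likewise, in HCT116 from 3.26, 3.74 and 3.59 CPM to 8.08, 7.09 and 6.18 CPM, while LS174T started at 15.9, 14.7 and 18.2 CPM and ended at 4.35, 3.43 and 3.87 CPM, and the order of the lines in 3D was the reverse of that in 2D. AHNAK2, a large scaffold protein, moved apart instead, in HCT116 from 8.22, 9.86 and 7.92 CPM to 34.7, 29.9 and 20.1 CPM, and in LS174T from 4.81, 2.79 and 4.74 CPM to 1.35, 1.60 and 1.505 CPM. The drug exporter ABCC3 rose in HCT116 by 1.61 ± 0.17 and fell in LS174T by 0.45 ± 0.16.

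In the opposite sense, FAM13A measured 42.1, 45.5 and 46.4 CPM in LS174T 2D and 132, 123 and 152 CPM in LS174T 3D, against 25.8, 26.3 and 22.2 CPM in HCT116 2D and 17.5, 18.8 and 18.4 CPM in HCT116 3D (difference -2.04 ± 0.15, adjusted p = 9.39e-09). RIT1, a small GTPase, rose in LS174T by 1.34 ± 0.18, and its fall of 0.62 ± 0.20 in HCT116 rested on 2 of 3 libraries, since HCT116 3D library 1 had 5.35 CPM within the 2D range of 4.92 to 6.10 CPM. DQX1, a helicase-like protein, rose in LS174T by 2.01 ± 0.22 and was at or below 0.332 CPM in HCT116.

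**Figure D4:**
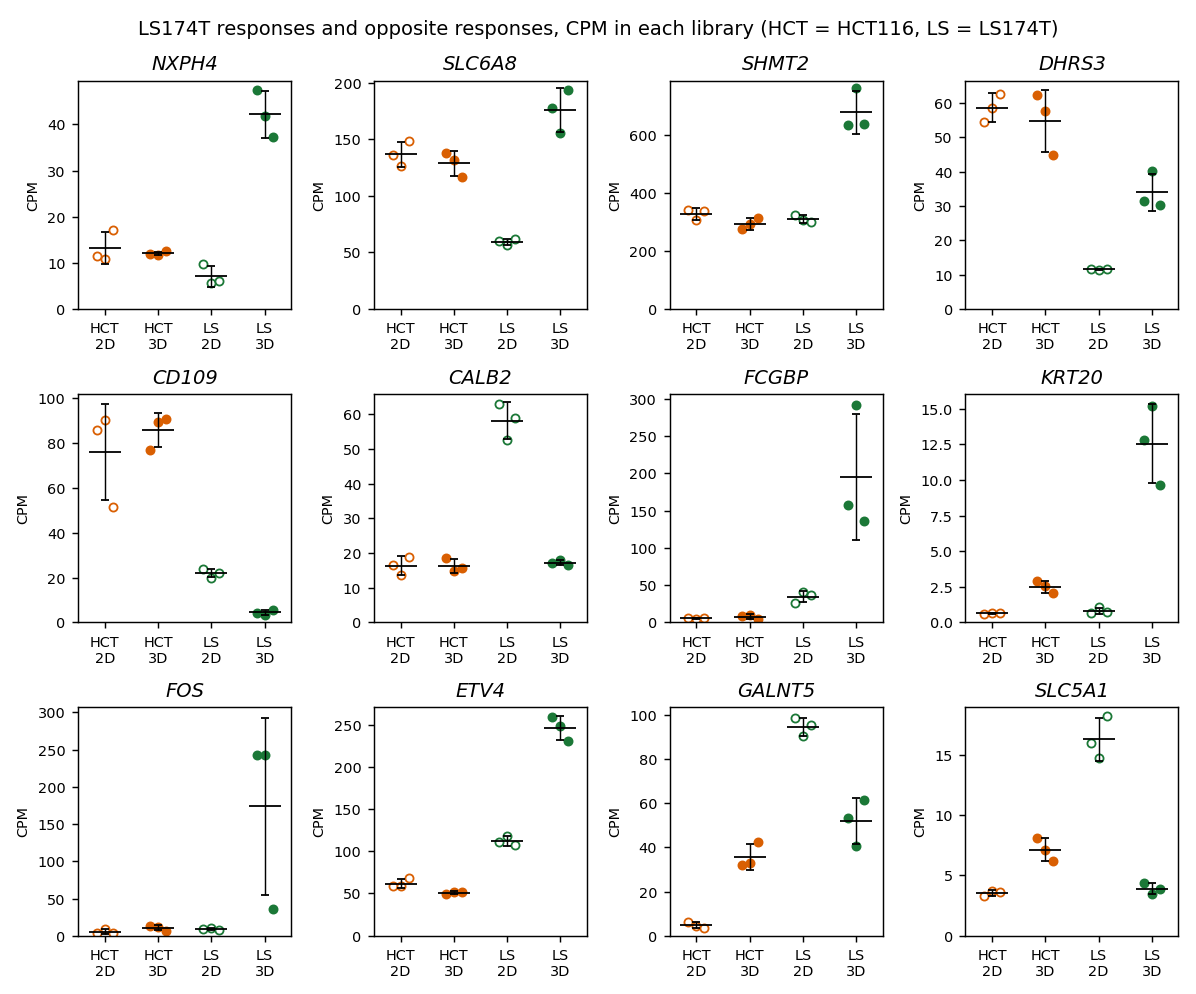
CPM in each of the 12 libraries for 12 genes with a response in LS174T, drawn as open (2D) and filled (3D) circles with means and SD (n = 3). NXPH4, SLC6A8, SHMT2 and DHRS3 rise and CD109 and CALB2 fall in LS174T with no such shift in HCT116, FOS is split among LS174T 3D libraries, and ETV4, GALNT5 and SLC5A1 move in opposite directions in the lines.

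Most hypoxia and sterol genes rose in both lines. Of 27 HIF targets tested, HCT116 raised 25 and LS174T 27, and 5 differed (all genes 4.75%), 2 higher and 3 lower in HCT116, with 13 at an unadjusted p under 0.05 (all genes 16.5%). The 2 became 0 without HCT116 2D library 1, HCT116 3D library 1 or HCT116 3D library 2, and 5 without HCT116 3D library 3 or LS174T 3D library 3. BNIP3, which marks mitochondria for removal, rose in both, from 20.9 to 26.0 CPM up to 57.5 to 61.5 CPM in HCT116, whereas LS174T went from 24.2 to 26.3 CPM up to 127 to 145 CPM (difference -1.05 ± 0.18, adjusted p = 0.000529). PFKFB3, which speeds up glycolysis, rose in LS174T alone by 1.05 ± 0.15, and ENO2 rose more in HCT116 (difference 0.95 ± 0.23). Of 18 glycolysis genes, 4 had a lower response in HCT116 and 0 a higher one (backgrounds 1.51% and 3.24%). They were led by LDHA, PGK1 and the lactate exporter SLC16A3 with differences of -0.72 ± 0.12, -0.84 ± 0.15 and -0.76 ± 0.19. Of 25 sterol genes, each line raised 23 and 1 differed. Over all genes, HCT116 raised 16.8% and LS174T 13.1%.

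Of 54 genes of G2 and mitosis, HCT116 lowered 35 and LS174T 18 (backgrounds 12.3% and 9.15%), and 0 differed at the adjusted threshold by edgeR, with 5 at an unadjusted p under 0.05 and 1 by DESeq2. The difference was below 0 for 48 of the 54, with a median of -0.15 against -0.01 over all genes. Of 43 S phase genes, HCT116 lowered 34 and LS174T 22, and the difference was below 0 for 36 with a median of -0.19. A lower response in HCT116 was called for 3 (background 1.51%). That count ranged from 0 without HCT116 3D library 2 or LS174T 2D library 3 to 7 without HCT116 3D library 3. MKI67, the proliferation antigen, measured 705, 691 and 389 CPM in HCT116 2D and 380, 500 and 426 CPM in HCT116 3D, with overlapping groups, and 254 to 281 CPM in LS174T 2D and 101 to 174 CPM in LS174T 3D. Its difference was 0.46 ± 0.26 (adjusted p = 0.385). Of 22 Wnt targets and stem cell genes 0 differed, with 6 at an unadjusted p under 0.05 and 1 by DESeq2.

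The study itself asked about extracellular purines, and of its 22 purine genes 12 could be tested here. One differed: NT5E (CD73), which makes adenosine from AMP, measured 31.9, 28.8 and 35.5 CPM in HCT116 2D and 50.8, 52.1 and 65.1 CPM in HCT116 3D, against 40.3, 50.05 and 50.3 CPM in LS174T 2D and 41.0, 33.7 and 43.8 CPM in LS174T 3D. HCT116 rose without overlap and the LS174T groups overlapped (difference 1.05 ± 0.22, adjusted p = 0.00479). The ATP-gated channel P2RX4 rose in both, by 0.89 ± 0.16 and 0.56 ± 0.16, and its difference of 0.33 ± 0.22 did not pass (adjusted p = 0.514).

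**Figure D5:**
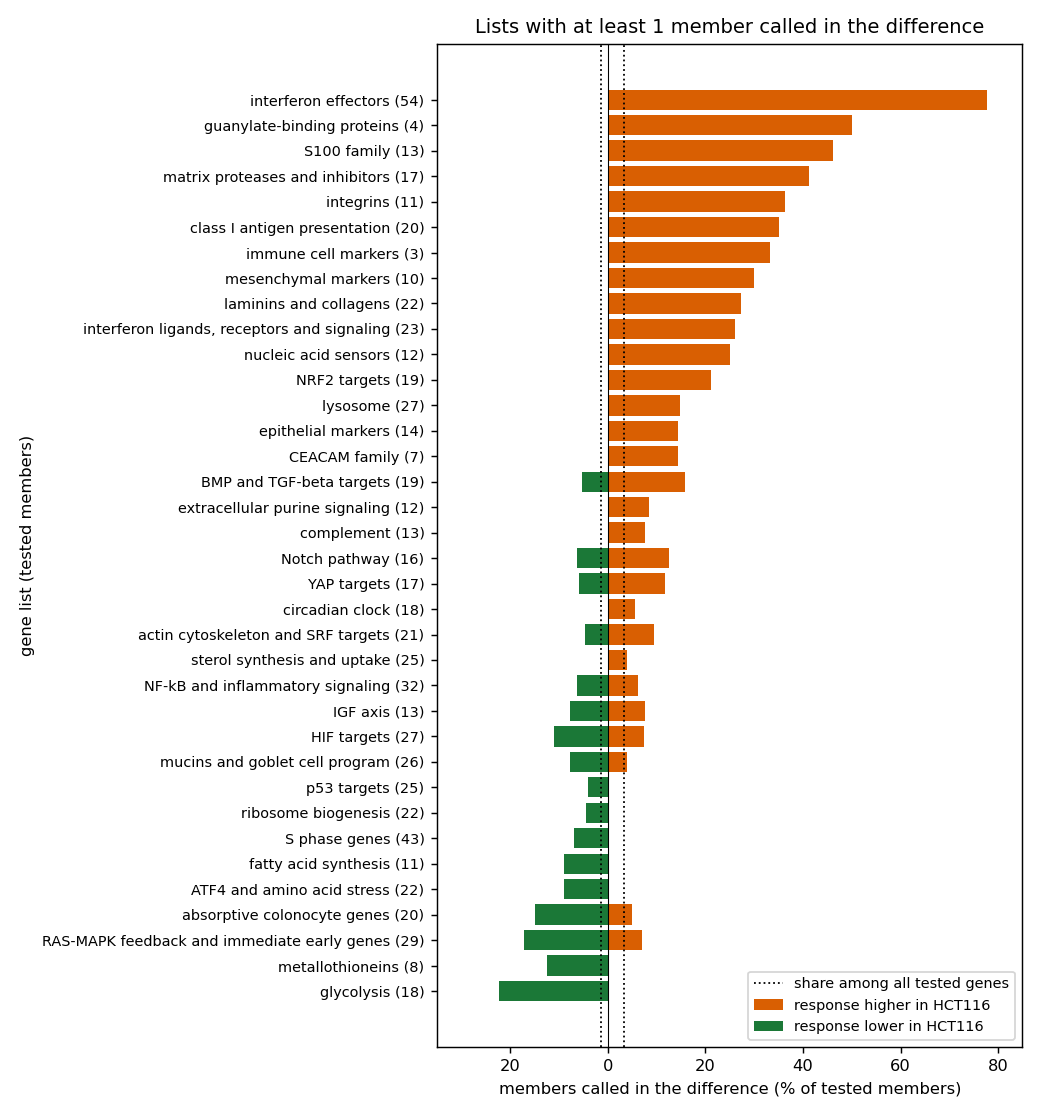
Share of the tested members of each gene list whose response was higher (orange, to the right) or lower (green, to the left) in HCT116 than in LS174T, with the number tested in brackets; dotted lines are the shares among all tested genes, 3.24% and 1.51%. Interferon effectors reach furthest to the right (42 of 54) and glycolysis furthest to the left (4 of 18), and lists with no member called are left out.

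Among the genes named here, some calls of a difference were lost when 1 library was left out. FOS and BMP2 lost it without HCT116 2D library 2 (adjusted p = 0.0689 and 0.051), BIRC3 without HCT116 3D library 1 (0.0583) and NOTCH1 without HCT116 3D library 2 (0.0531). MT1X lost it without HCT116 2D library 1 or LS174T 2D library 3 (highest 0.0729), and SLC16A3 without LS174T 2D library 2 or library 3 (highest 0.0683). ENO2 lost it without HCT116 2D library 1, HCT116 3D library 1 or HCT116 3D library 2 (highest 0.0784), SPDEF without HCT116 2D library 1, HCT116 2D library 2 or HCT116 3D library 3 (highest 0.113), and SLC9A3 without HCT116 2D library 1, HCT116 2D library 2 or HCT116 3D library 2 (highest 0.185). IL1A, MUC20, ZNF532, CDX2 and SEPTIN3 lost it without 4, 4, 5, 8 and 9 of the 12 libraries. Other calls held when any 1 library was left out and were lost under another fit. ADAR lost it with the 12 libraries alone and CLDN3 under the replicate block. CLDN4 and SMIM13 lost it under both of these fits.

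HT29 and LS513, the other lines of the study, shared part of these responses. Of the 176 genes raised in HCT116 alone, 93 (52.8%) rose in HT29 and 77 (43.8%) in LS513, against 21.1% and 13.7% of all tested genes. Of the 52 raised in LS174T alone, 32 (61.5%) rose in HT29 and 17 (32.7%) in LS513. Of the 70 genes that rose in HCT116 and fell in LS174T, 8 rose and 31 fell in HT29, and 23 rose and 8 fell in LS513. Of all tested genes, 19.6% fell in HT29 and 9.9% in LS513. HT29 raised 35 of the 54 interferon effectors and lowered 8, and LS513 raised 15 and lowered 1.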

How the data were processed

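RNA was sequenced from 24 libraries, 3 for each of 4 lines in 2D and 3D, each run as 8 technical replicates. One of the 192 technical replicates, of HT29 3D, was not analysed here. The authors made poly(A)-selected stranded libraries, read 75-base single ends, and deposited raw read counts per gene and technical replicate. Their processing notes name bcl2fastq 2.18.0.12, Trim Galore 0.4.1, STAR and HTSeq 0.5.3. Reads that aligned more than once were removed, which lowers the counts of genes with near-identical copies. The notes name hg19, whereas the methods name Ensembl 91, which is GRCh38. The deposited counts carry gene identifiers only, so coordinates come from GENCODE 29 (99.5% of identifiers matched) and promoters from RefSeq.

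Technical replicates were summed; their spread was close to sampling noise (median chi-square per degree of freedom 0.905 to 0.933, against 0.907 from sampling alone with 8 replicates). Genes passing filterByExpr (19387) were fitted with edgeR 4.0.16 in R 4.3.3: robust quasi-likelihood, TMM, all 24 libraries and 1 coefficient for each of 8 groups, so that the 4 lines share 1 estimate of spread. The difference of differences was a contrast of these. The spread between libraries was unequal among the groups. Its median chi-square per degree of freedom was 12.4 in LS174T 3D and 2.71 in LS174T 2D. In HCT116 it was 5.42 in 3D and 5.94 in 2D. The shared estimate does not carry this, so intervals of LS174T changes, on which the HCT116-only class rests, may be too narrow. P-values were adjusted by Benjamini-Hochberg over all genes. CPM use TMM-scaled library sizes. Standard errors are the size of the fold change divided by the root of F. On simulated counts for 19121 genes with 200 changed, 176 were called with 8 false calls. Calls were 49 of 50 at a true 4-fold, 43 at 2-fold, 37 at 0.5-fold and 47 at 0.25-fold. Of these, 49, 24, 23 and 46 entered the HCT116-only class. The 200 changed genes were drawn only from genes above a minimum mean count in HCT116, so genes with few counts there were never changed. The simulated rates were not split further by expression level. They need not hold for genes with few counts, or where many genes respond to 3D.

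Named genes were, per class and direction, up to 5 with the largest difference, at least 5 CPM and no overlap between 2D and 3D in the responding line (in either line for opposite genes). To these were added up to 3 members of each of 45 gene lists with the smallest p of the difference, the purine genes and MKI67, and promoters for up to 4 effectors. IFITM1, IFI6, IFIT1, ISG20, ADAR, EIF2AK2, PARP14, HLA-F, B2M, MUC2, SEPTIN3, TCEA2 and CDX2 were chosen after their values were seen. Members and lists were chosen with earlier results of these data known. Alternatives were the size factors and Wald test of DESeq2 1.42.0, no filter, a replicate block, 12 libraries alone, other intervals, an unadjusted threshold and leaving out each library. Intervals of fold changes carry the spread between libraries, whereas floors cover counting error only. Some items are not reported here.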

Additional observations from a re-analysis of the deposited data

Results flagged for a closer look

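The response to 3D differed between HCT116 and LS174T by the test of the difference itself for 921 genes, of which 629 were higher and 292 lower in HCT116. Among the genes named in the text, the following were called in both lines with opposite signs.

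Interferon and antigen presentation genes rose in HCT116 and fell in LS174T, with differences on the log2 scale of 3.08 for PARP9, 2.32 for OAS3, 1.64 for PARP14, 1.28 for EIF2AK2, 1.19 for NLRC5 and 0.87 for ADAR. Adhesion genes followed, with 1.57 for LAMA3, 1.01 for ITGA3 and 0.83 for ITGB5. Transporters, scaffolds and enzymes of the same sense were GALNT5 at 3.79, SLC9A3 at 3.48 with at most 6 counts in HCT116, AHNAK2 at 3.17, SLC5A1 at 3.07 and ABCC3 at 2.05.

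In the other sense, falling in HCT116 and rising in LS174T, the differences were -3.48 for DQX1, -3.14 for CYP26B1, -2.04 for FAM13A, -1.97 for RIT1, -1.41 for ETV4, -0.97 for DUSP6 and -0.88 for NRARP.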

How the results depend on the processing

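Of 98 genes recomputed with a called difference, 76 kept the call in each alternative and 22 lost it in at least 1. None reversed. The 22 include AXL, GMNN, PRIM1 and USP1, which are not described in the text above. Some counts moved by over 1.5 times, and the cause was not tested except where fewer samples or genes entered. With all genes of at least 1 count, genes lowered in HCT116 alone were 13, those moving the same way to a different extent 167 and those not detected in the other line 8. By DESeq2, lower differences were 534, opposite lower genes 30 and same-direction genes 141. With only the 12 libraries, differences were 510 (360 higher, 150 lower), LS174T calls 2816 and opposite genes 52 (41 higher, 11 lower). Same-direction genes were 37 and not-detected genes 1, and 15 of the 98 genes lost their call. Asking the other line's interval to lie inside -0.58 to 0.58 left 77 HCT116-only genes (74 raised) and 33 LS174T-only genes (28 raised, 5 lowered), and asking for no interval gave 17 lowered in LS174T alone. An unadjusted p under 0.05 gave 3202 differences and 6975 LS174T calls. At least 1 CPM in the responding line, an alternative chosen after seeing the data, left 1 gene lowered in HCT116 alone.

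Leaving out 1 library at a time gave 565 to 1237 differences, 381 to 747 higher and 175 to 490 lower, 3747 to 6836 calls in HCT116 and 2083 to 6038 in LS174T. HCT116 calls were lowest without HCT116 2D library 1, and LS174T calls without LS174T 3D library 2. HCT116-only genes were 129 to 222 (128 to 215 raised, 1 to 11 lowered), LS174T-only genes 42 to 81 (31 to 55 raised, 7 to 29 lowered), opposite genes 51 to 117 (42 to 86 higher, 9 to 31 lower), same-direction genes 38 to 111 and not-detected genes 2 to 5.

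Deviations of same-numbered 2D and 3D libraries had correlations of -0.146, 0.0582 and -0.0666 in HCT116 and -0.125, -0.11 and 0.0938 in LS174T. Pairs of unlike number ranged from -0.13 to 0.179. With 3 libraries a group, these values cannot settle whether same-numbered libraries were paired. A replicate block gave 535 differences (414 higher, 121 lower), 1 gene lowered in HCT116 alone and 11 opposite lower genes. It gave 38 same-direction genes and 0 not-detected genes, and 13 of the 98 recomputed genes lost their call.

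Depth limits statements on genes near 3 counts, such as goblet genes in HCT116 and IFIT1 in LS174T.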
